A study of Mus musculus with 10 samples.

Results

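The genes described here are those whose level on every other array of a panel of mouse macrophages was at least 2 times that in alveolar macrophages, the resident macrophages of the lung airspaces. The rule took probes with a single gene symbol, asked in the authors' processed values that the lowest of the other 9 arrays be at least 2 times the lung array, and asked for a detection p-value under 0.01 on all 9 of those arrays. Each gene kept its brightest probe. Of 17711 named genes on the array, 60 passed, and 6 of these (C1qa, C1qb, C1qc, Maf, Slc11a1 and Ifitm3) were left out by name, which left 54 genes. A further gene named for exclusion, Slc40a1, did not pass. Among the 6379 probes with 1 symbol that were detected on all 9 other arrays, 69 (1.08%) met this ratio of 2. The alveolar array held the lowest of the 10 values for 846 of them (13.3%). The alveolar values chose these genes, so the low alveolar level is a description and carries no test.

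Gene expression was measured on 10 Illumina bead arrays, which read labelled RNA with gene-specific probes. All cells came from untreated male C57BL/6 mice aged 8 to 10 weeks. A pair of arrays each came from the peritoneum, the small intestine and adipose tissue. Alveolar macrophages, Kupffer cells of the liver, red pulp macrophages of the spleen, and BMDM had 1 array each. BMDM are macrophages grown from bone marrow, here for 7 days with the growth factor M-CSF. The labels do not say whether paired arrays came from separate animals, nor how the cells were purified. P-values therefore measure only how these arrays vary, which may be technical, and the 4 groups with 1 array were assumed to vary like the other 3. Between 22.6% and 26.39% of probes were detected per array, with the smallest share on the alveolar array. That array was also the dimmest of the 10 by median raw signal (89.83, with the Kupffer array next at 98.08). It belonged to a dimmer set with the Kupffer, splenic and BMDM arrays and peritoneal replicate 1, and the other 5 arrays formed a brighter set. The part of this dimness in the low alveolar values was not tested. The number of arrays limits the precision throughout.

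Alveolar macrophages live on the air side of the lung, where they clear surfactant lipid and inhaled particles, and they depend on GM-CSF and the lipid-sensing nuclear receptor PPAR-gamma. Macrophages of other organs depend mainly on M-CSF or IL-34 and share a programme of apolipoproteins, complement components and uptake receptors. Interferon-inducible genes, many of which keep a low tonic expression without infection, act against viruses and intracellular microbes. Their promoters often carry the interferon-stimulated response element (ISRE), a DNA motif bound by interferon regulatory factors.

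The alveolar label was checked against markers. Of 12 alveolar macrophage markers on the array, 8 were detected on the alveolar array (Krt79, Krt19, Plet1, Cidec, Car4, Pparg, Itgax and Marco), against 1 to 4 of the 12 on each other array. The summed normalized level of the list was 33751 on the alveolar array and 849 to 3229 elsewhere. Siglecf, Fabp1, Atp6v0d2 and Olr1 were not detected on it. All 10 general macrophage markers were detected on every array, and their summed normalized level was 127221 on the alveolar array against 101017 to 137440 elsewhere. Single markers differed: Lyz2 was higher in alveolar macrophages than in the mean of the other 6 groups, and Fcgr1, Adgre1, Cd14, Lamp1 and Tyrobp were lower (limma, adjusted p under 0.05). Of 9 lung epithelial markers, 3 (Scgb1a1, Sftpc and Cdh1) were detected on the alveolar array, where the list summed to 4110 against 115 to 271 on the other arrays, while Sftpb, Sftpa1, Epcam, Nkx2-1, Krt8 and Krt18 were not detected there. Of 6 T and NK cell markers 4 were detected on the alveolar array, of 7 dendritic cell markers 4 and of 8 endothelial markers 6. These lists summed to 433 (103 to 715 elsewhere), 1571 (122 to 4357) and 2659 (271 to 11215). Cd3e, Cd3d, Nkg7, Ccr7, Clec9a, Dpp4, Vwf and Egfl7 were higher in alveolar macrophages than in the mean of the other groups. In the T and NK cell and dendritic cell lists 0 tested genes were lower, but in the endothelial list 2 of 7 were. Of 2 tested B cell genes Cd79a was higher and 1 was lower. Of 5 tested neutrophil genes S100a8 was higher and 2 were lower (Retnlg and S100a9, both not detected there). Of 3 erythroid markers 2 were detected on the alveolar array, and the list summed to 4927 (35.4 in BMDM to 48296 in the spleen). The fibroblast list had 1 of 6 detected there and summed to 171 (58.6 to 3590 elsewhere). The hepatocyte list had 2 of 6 detected and summed to 240 (107 to 2754 elsewhere). The part of RNA from other cells in the low values below was not tested. In such bulk samples, fewer cells that express a gene and less RNA per cell cannot be told apart.

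Of the 54 genes, 33 were still detected on the alveolar array and 21 were not. The ratio of the lowest other array to the alveolar array ranged from 2.00 to 12.1 with a median of 2.69. It was at least 3 for 17 genes and at least 5 for 7 genes (Apoe, Ifitm1, Prkcb, Pdlim4, Lacc1, Ifi27l2a and Kcnk13). Against the median of the 9 other arrays, the median ratio was 5.61. These ratios are on the authors' linear values, which keep the array's background, so they understate the difference for dim genes, and for the 21 genes not detected there they are set against a value not above background. The 3 genes just inside the threshold were Rasa3 (2.02), Pigz (2.01) and Arrb2 (2.00), and the 3 just outside were Cyria (1.98), Ptpn18 (1.98) and Nrp1 (1.96). The same rule turned on each other group found 5 genes for Kupffer cells, 15 each for intestinal and adipose macrophages, 31 for peritoneal macrophages, 37 for splenic macrophages and 84 for BMDM, where groups with 2 arrays were set against 8 others.

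**Figure D1:**
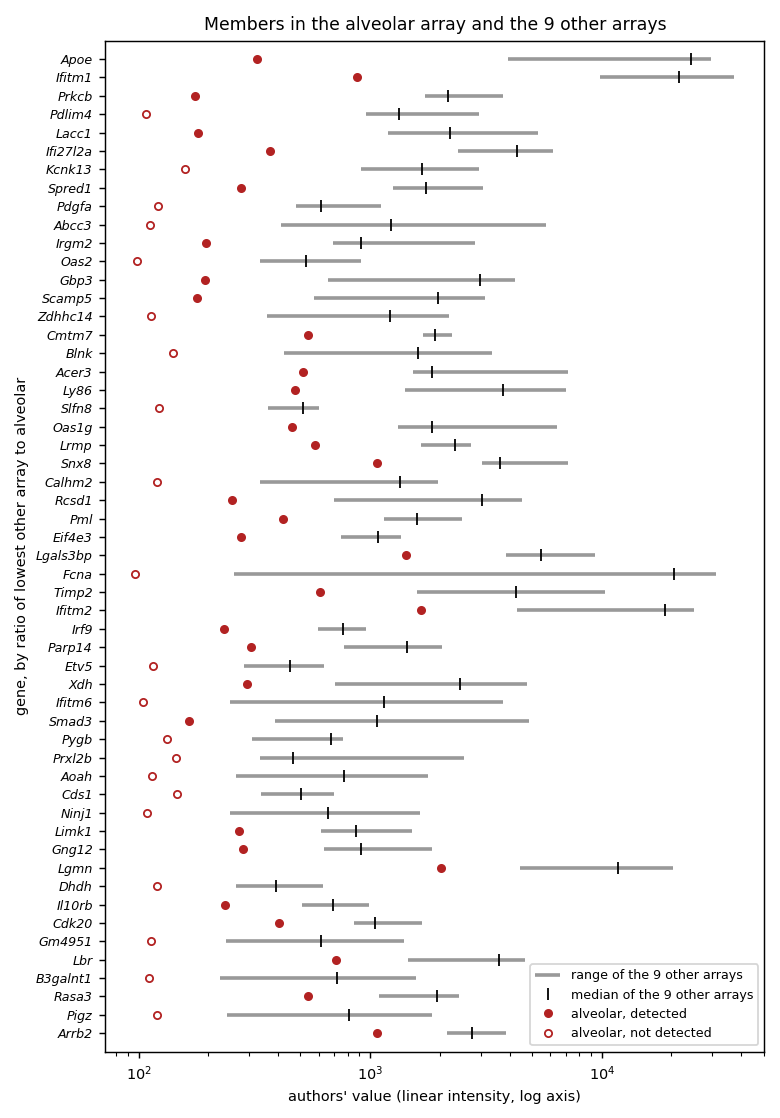
Authors' linear intensity (log axis) of each of the 54 genes on the alveolar array (circles, open where the gene was not detected) and its range and median over the 9 other arrays (grey bar and tick). Genes are ordered by the ratio of the lowest other array to the alveolar array, from 12.1 for Apoe to 2.00 for Arrb2, and every bar lies to the right of its circle.

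The rule asked for detection on the 9 other arrays and for a lowest value of at least 2 times the alveolar one, so it bounded the levels outside the lung from below. Above that bound the levels differed widely. Since the rule used these arrays, the comparisons among them are not independent of the choice of genes and are given beside the share over all transcripts. Of the 54, 47 (87%) had different levels among the 6 groups other than alveolar by limma's F test (Benjamini-Hochberg adjusted p under 0.05), against 77.1% of 12838 transcripts tested and 74.1% of those detected on all 9 arrays. The 7 that did not pass were Cmtm7, Il10rb, Irf9, Lgals3bp, Lrmp, Oas2 and Slfn8. The narrowest log2 ranges over the 9 other arrays were those of Cmtm7 (0.43), Lrmp (0.73), Irf9 (0.78), Arrb2 (0.86) and Eif4e3 (0.91). The widest were those of Fcna (7.43), Ifitm6 (4.50), Abcc3 (4.06), Smad3 (3.92) and Pigz (3.54). Peritoneal macrophages had the lowest mean of the 6 groups for 18 genes (33.3%, against 13.2% of genes detected on all 9 arrays), and BMDM for 17 (31.5%, against 26.1%). Adipose macrophages had the highest mean for 14 genes (25.9%, against 14.7%), splenic macrophages for 11 (20.4%, against 19.7%) and Kupffer cells for 10 (18.5%, against 10.4%).

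**Figure D2:**
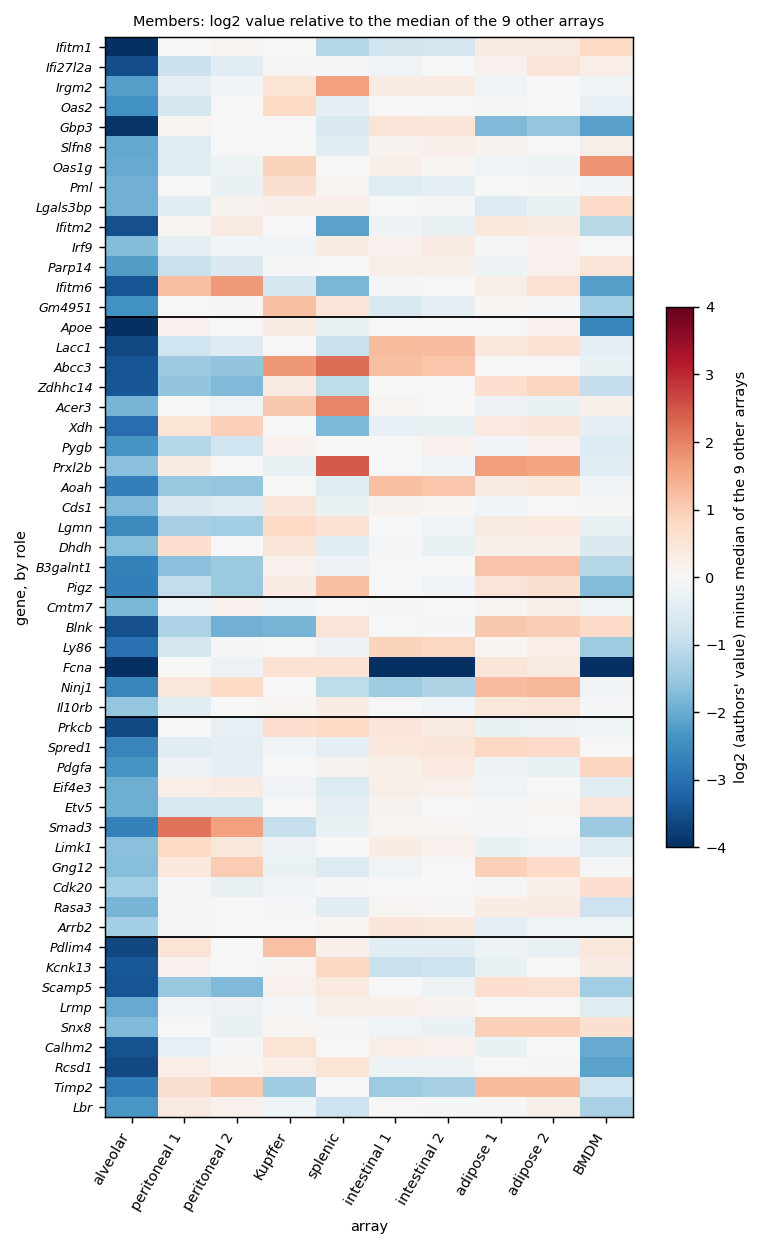
Authors' value of each gene on each of the 10 arrays as log2 relative to the median of the 9 arrays other than alveolar (colour, red above and blue below, limited to 4 on either side), with genes grouped by role and separated by lines. The alveolar column is blue in every row, and Fcna, Ifitm6, Abcc3, Smad3 and Pigz, the genes with the widest log2 ranges, vary among the other columns.

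Cultured macrophages were compared with tissue macrophages by setting BMDM against the mean of the 5 tissue groups other than alveolar. The rule did not use this contrast, but it used each of these arrays, and BMDM was the lowest of the 9 for 17 of the 54 genes. Of the 54 genes, 23 were lower in BMDM (42.6%, against 30.2% of all transcripts and 26.3% of those detected on all 9 arrays) and 9 were higher (16.7%, against 23.4% of all transcripts and 24.7% of those detected on all 9). The median log2 difference was -0.41 for the 54 genes and -0.13 for all transcripts. The BMDM value lay below all 8 tissue arrays for 17 genes (31.5%, against 24.2% of all transcripts and 24% of those detected on all 9). It lay above all 8 for 8 genes (14.8%, against 21.2% and 23.7%). The falls with the largest size were those of Fcna, Apoe, Ifitm6, Calhm2, Pigz and Rcsd1, and these 6 passed under each of 14 alternative fits. The largest rises were those of Oas1g, Blnk, Ifitm1, Pdgfa, Etv5 and Lgals3bp. Of these, Lgals3bp passed in 9 of the 14 alternative fits and Ifitm1, Pdgfa and Etv5 in 13.

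The replicated contrast of intestinal against adipose macrophages gave 7 genes higher in the intestine (13%). The share was 15.1% of all transcripts and 11.3% of those detected on all 9 arrays. In adipose tissue 15 genes were higher (27.8%, against 15.2% of all transcripts and 15.4% of those detected on all 9 arrays). Both intestinal arrays lay above both adipose arrays for 21 genes (38.9%, against 34.9% and 34% in the same order). They lay below both for 29 (53.7%, against 40% and 44.8%). The largest differences in favour of adipose tissue were those of Fcna, Ninj1, Timp2, Prxl2b, B3galnt1 and Snx8, and they passed in all 14 alternative fits. Among the genes that passed, the largest in favour of the intestine were those of Gbp3, Abcc3, Aoah, Lacc1, Arrb2 and Pdgfa, of which Gbp3 and Abcc3 passed in all 14 alternative fits and the others in 9 to 11. With arrays scaled to a common median instead of quantile normalized, the counts for the 54 genes were 2 higher and 9 lower in the intestine, and 2 higher in BMDM.

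**Figure D3:**
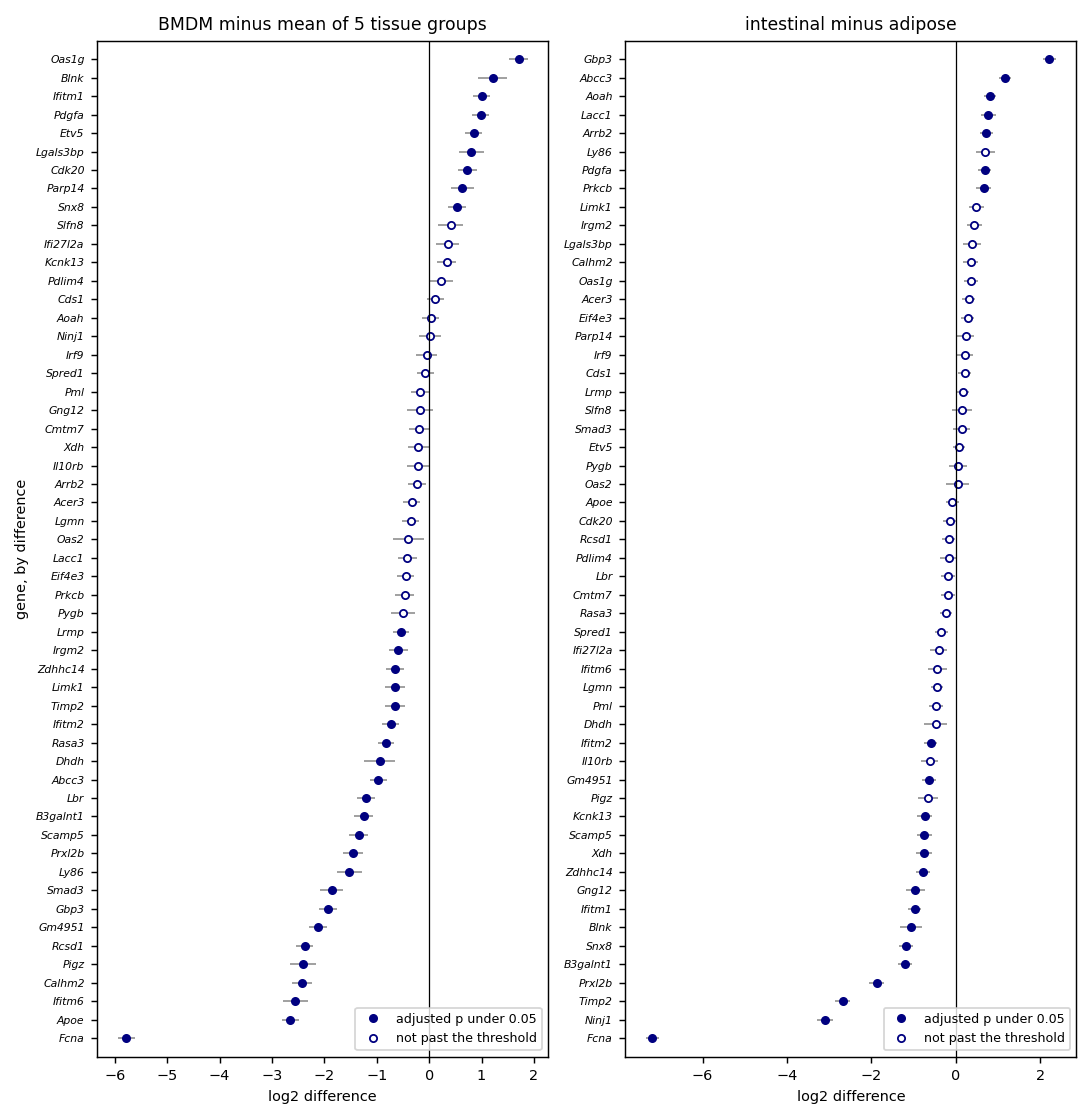
Log2 difference (point) with its standard error (line) of each of the 54 genes for BMDM against the mean of the 5 tissue groups other than alveolar and for intestinal against adipose macrophages. Filled points passed an adjusted p of 0.05. Fcna lies far below the other genes in both panels, at -5.78 and -7.19.

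The first role group, with 14 genes, was interferon-inducible. Promoter sequences are shown first for the genes whose window held the ISRE or the related ETS-IRF composite motif upstream of the start, since the motif is a feature that the rule did not use. Sequences are from RefSeq (mouse build GRCm38.p6), 250 bases before to 50 after the first listed start of a gene, and 41 of the 54 genes had an entry. The ISRE, searched as GAAA, any 2 bases and GAAA on both strands, was found in 6 of these 41 promoters (14.6%), against 231 of 7483 promoters of tested genes (3.09%) and 943 of all 27025 (3.49%). The 6 were those of Irgm2, Gbp3, Slfn8, Oas1g, Ifitm2 and Aoah. The ETS-IRF composite, GGAA, any 2 bases and GAAA, overlaps the ISRE in some sequences and was found in Irgm2 and Ifitm6 (4.88%, against 2.63% of tested genes and 2.79% of all). Each run below is 120 bases, 5′ to 3′ on the strand of the gene, and capitals mark the matches of both motifs. The match of Aoah reached past the start of the gene and is not printed. The windows are chr11:58214852-58214971 (plus strand) for Irgm2, chr3:142559924-142560043 (plus) for Gbp3, chr11:83020811-83020930 (minus) for Slfn8, chr5:120887614-120887733 (minus) for Oas1g, chr7:140955962-140956081 (minus) for Ifitm2 and chr7:141017023-141017142 (minus) for Ifitm6.
Irgm2: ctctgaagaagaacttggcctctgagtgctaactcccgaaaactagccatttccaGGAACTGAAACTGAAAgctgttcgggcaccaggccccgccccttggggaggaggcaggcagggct
Gbp3: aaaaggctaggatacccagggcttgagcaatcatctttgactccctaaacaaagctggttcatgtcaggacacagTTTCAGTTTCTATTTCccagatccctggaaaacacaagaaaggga
Slfn8: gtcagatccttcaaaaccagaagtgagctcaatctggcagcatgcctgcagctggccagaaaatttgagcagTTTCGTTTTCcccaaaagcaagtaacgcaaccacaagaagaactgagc
Oas1g: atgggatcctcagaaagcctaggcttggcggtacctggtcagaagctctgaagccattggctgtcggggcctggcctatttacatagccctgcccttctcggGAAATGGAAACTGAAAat
Ifitm2: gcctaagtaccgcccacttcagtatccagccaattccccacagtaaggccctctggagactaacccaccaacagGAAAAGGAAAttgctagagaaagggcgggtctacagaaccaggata
Ifitm6: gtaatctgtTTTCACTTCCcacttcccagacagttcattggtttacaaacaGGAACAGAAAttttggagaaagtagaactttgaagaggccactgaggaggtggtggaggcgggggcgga
Counted from the start of the gene, the first base of the ISRE lay at -64 in Irgm2, -46 in Ifitm2 and, on the opposite strand, -48 in Slfn8. Gbp3 held a pair of overlapping matches, also on the opposite strand, at -45 and -39. Oas1g held a pair on the strand of the gene, at -18 and -12. A match describes these letters and is not evidence of binding.

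Shares are given for the other motifs in the same way. The PU.1 core GAGGAAGT was in 3 promoters (Snx8, Calhm2 and Pml; 7.32%, against 3.19% of tested genes and 3.28% of all), a single MARE arm, TGCTGANNT, in 3 (Lgals3bp, Limk1 and Cdk20; 7.32%, against 3.74% and 5.47%) and the C/EBP motif TTGCNNAA in 4 (9.76%, against 8.67% and 10.8%). The AP-1 motif TGANTCA was in 1 (2.44%, against 5.17% and 7.93%), the CRE TGACGTCA in 1 (2.44%, against 3.09% and 1.88%), the E-box CACGTG in 2 (4.88%, against 10.3% and 7.24%) and the Ets motif GCGGAAG in 2 (4.88%, against 12% and 5.91%). The full MARE, TGCTGA, any base and TCAGCA, (0.0074% of all) and the NF-kB motif, GGGA, any base and TTTCC (0.385% of all) were in none of the 41. These letters not being in a window says nothing about the factor.

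Values given per array are the authors' linear intensities, and log2 differences with their p-values come from signals that were background corrected and quantile normalized here. Among the interferon-inducible genes, Ifitm1, a membrane protein of the family that blocks virus entry, had the highest ratio. The value of Ifitm1 was 874 on the alveolar array, 21669 and 23387 on the peritoneal arrays, 21569 in Kupffer cells, 9795 in the spleen, 13041 and 13652 in the intestine, 26801 and 27943 in adipose tissue and 37446 in BMDM. The alveolar value was 11.2 times below that of the spleen, the lowest of the others, and BMDM were the highest. Ifitm1 was higher in BMDM than in the mean of the 5 tissues (log2 difference 1.00, SE 0.16; limma, adjusted p = 0.00177). Intestinal macrophages were below adipose macrophages by 0.98 on the log2 scale (limma, adjusted p = 0.00238), and all 4 of these arrays were well above the alveolar one.

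Its relatives Ifitm2 and Ifitm6, on the same chromosome, had other patterns. Ifitm2 measured 1664 in alveolar macrophages against 19992 and 23923 in the peritoneum, 18836 in Kupffer cells, 4315 in the spleen, 16220 and 15472 in the intestine, 25149 and 23809 in adipose tissue and 8801 in BMDM. Ifitm2 was thus bright on most arrays, with the spleen closest to the alveolar value at a ratio of 2.59. The alveolar array read 105 (not detected) for Ifitm6, the peritoneal arrays 2634 and 3734, the Kupffer array 708, the splenic array 320, the intestinal arrays 1113 and 1144, the adipose arrays 1331 and 1745 and the BMDM array 248. Ifitm6 was not detected on the alveolar array and was highest in the peritoneum. Against the 5 tissues, BMDM had lower Ifitm6 (log2 difference -2.55, SE 0.24; limma, adjusted p = 0.000196). Probes of the Ifitm family can share sequence, and the same holds for the Oas1, Gbp, Irgm and Slfn families, so which family member such a probe read is uncertain.

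Ifi27l2a, an interferon-induced protein of the mitochondrial and nuclear membranes, was low by a ratio of 6.50. For Ifi27l2a the values were 369 in alveolar macrophages, 2399 and 3202 in peritoneal ones, 4462 in Kupffer cells, 4170 in the spleen, 3951 and 4329 in the intestine, 4900 and 6155 in adipose tissue and 5236 in BMDM. The 9 other arrays lay within a 2.57-fold range, and the smallest of them was peritoneal. BMDM and the 5 tissues gave a log2 difference of 0.35 with SE 0.22 (limma, adjusted p = 0.214).

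The GTPases Gbp3, a guanylate-binding protein, and Irgm2, of the immunity-related family, act on membranes that enclose intracellular microbes. Against 195 on the alveolar array, Gbp3 read 3175 and 2973 in the peritoneum, 3004 in Kupffer cells, 2001 in the spleen, 4211 and 4198 in the intestine, 867 and 1015 in adipose tissue and 659 in BMDM. Gbp3 had its highest values in the intestine and its lowest, apart from the alveolar one, in BMDM and adipose tissue. Gbp3 was higher in the intestine than in adipose tissue (log2 difference 2.21, SE 0.16; limma, adjusted p = 6.68e-05). BMDM were lower in Gbp3 than the tissues (log2 difference -1.93, SE 0.17; limma, adjusted p = 0.000146). The value of Irgm2 was 196 on the alveolar array, 690 and 848 on the peritoneal arrays, 1343 in Kupffer cells, 2852 in the spleen, 1125 and 1167 in the intestine, 816 and 911 in adipose tissue and 833 in BMDM. The spleen held the highest Irgm2 value, and the groups other than the spleen lay closer together.

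The oligoadenylate synthetases Oas2 and Oas1g sense double-stranded RNA. Oas2 measured 98.2 (not detected) in alveolar macrophages against 333 and 531 in the peritoneum, 910 in Kupffer cells, 404 in the spleen, 538 and 529 in the intestine, 505 and 534 in adipose tissue and 423 in BMDM. Oas2 was not detected in alveolar macrophages and was highest in Kupffer cells, but its F test among the 6 groups did not pass (limma, adjusted p = 0.0622). The alveolar array read 458 for Oas1g, the peritoneal arrays 1325 and 1602, the Kupffer array 3489, the splenic array 1857, the intestinal arrays 2143 and 1969, the adipose arrays 1636 and 1614 and the BMDM array 6428. Oas1g was detected in alveolar macrophages, at a ratio of 2.89, and BMDM were above all tissue arrays. Oas1g was higher in BMDM than in the mean of the 5 tissues (log2 difference 1.71, SE 0.18; limma, adjusted p = 0.000283).

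Irf9, an interferon regulatory factor, was among the flattest genes of the group. For Irf9 the values were 233 in alveolar macrophages, 596 and 717 in peritoneal ones, 697 in Kupffer cells, 953 in the spleen, 863 and 964 in the intestine, 737 and 856 in adipose tissue and 767 in BMDM. The alveolar value stood apart at a ratio of 2.56, and the F test among the other groups gave an adjusted p of 0.142. Parp14, an ADP-ribosyltransferase, and Pml, the organizer of PML nuclear bodies, were detected in alveolar macrophages at 307 and 420, with lowest other values of 775 and 1146. Lgals3bp, a secreted galectin-binding glycoprotein, was at 1434 against 3850 to 9316. Slfn8, of the Schlafen family, was not detected in alveolar macrophages, at 123 against 362 to 600. The remaining interferon-inducible gene is known only by a clone-type name and was not detected in alveolar macrophages. Of the 14, 4 were higher and 5 lower in BMDM than in the tissues, where 23.4% of all transcripts were higher and 30.2% lower, and the median log2 difference was -0.11.

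The second group of 14 genes handles lipids, lysosomal cargo and metabolites. Apoe, the apolipoprotein E that carries cholesterol out of macrophages, had the highest ratio of all. Against 324 on the alveolar array, Apoe read 27058 and 24351 in the peritoneum, 29667 in Kupffer cells, 19992 in the spleen, 23809 and 24233 in the intestine, 24051 and 27370 in adipose tissue and 3924 in BMDM. The 8 tissue arrays other than alveolar lay close together between 19992 and 29667, BMDM were lower, and the alveolar array was lower again, 12.1 times below BMDM. Against the 5 tissues, BMDM had lower Apoe (log2 difference -2.65, SE 0.16; limma, adjusted p = 3.77e-05). On the background-corrected scale the mean of the other 6 groups was 72.7-fold above the alveolar level.

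Lacc1, a macrophage enzyme of purine nucleoside metabolism, was at a ratio of 6.64. The value of Lacc1 was 181 on the alveolar array, 1275 and 1556 on the peritoneal arrays, 2206 in Kupffer cells, 1200 in the spleen, 5328 and 5236 in the intestine, 2928 and 3295 in adipose tissue and 1704 in BMDM. The intestine held the highest values and the spleen the lowest of the other arrays. Intestinal macrophages had higher Lacc1 than adipose macrophages (log2 difference 0.77, SE 0.17; limma, adjusted p = 0.0128). Abcc3, an exporter of organic anions and conjugates, was not detected in alveolar macrophages. Abcc3 measured 112 (not detected) in alveolar macrophages against 446 and 412 in the peritoneum, 4083 in Kupffer cells, 5759 in the spleen, 2803 and 2620 in the intestine, 1222 and 1225 in adipose tissue and 1015 in BMDM. Its values outside the lung were lowest in the peritoneum and highest in the spleen. Between intestine and adipose tissue, Abcc3 was higher in the intestine (log2 difference 1.17, SE 0.15; limma, adjusted p = 0.00114).

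Lgmn, the lysosomal asparaginyl endopeptidase, was the brightest of the group on the alveolar array. The alveolar array read 2019 for Lgmn, the peritoneal arrays 4718 and 4446, the Kupffer array 20357, the splenic array 17651, the intestinal arrays 11757 and 10617, the adipose arrays 15192 and 15412 and the BMDM array 9667. Peritoneal macrophages were the closest to it and Kupffer cells the highest. Aoah, which removes acyl chains from bacterial lipopolysaccharide, was not detected in alveolar macrophages. For Aoah the values were 115 (not detected) in alveolar macrophages, 270 and 263 in peritoneal ones, 771 in Kupffer cells, 556 in the spleen, 1784 and 1653 in the intestine, 964 and 1031 in adipose tissue and 702 in BMDM. The peritoneal values of Aoah were also low, and the intestinal ones were the highest. Aoah was higher in the intestine than in adipose tissue (log2 difference 0.81, SE 0.15; limma, adjusted p = 0.00601).

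Prxl2b, a prostamide and prostaglandin F synthase, was not detected in alveolar macrophages, at 145, and was at 335 in BMDM, the lowest of the others, and 2541 in the spleen. Intestinal macrophages had lower Prxl2b than adipose macrophages (log2 difference -1.87, SE 0.18; limma, adjusted p = 0.000256). Xdh, the xanthine dehydrogenase of purine breakdown, was at 294 against 706 in the spleen and 4753 on peritoneal array 2. Acer3, an alkaline ceramidase, was at 514 against 1530 to 7169, with the spleen the highest. Zdhhc14, a protein palmitoyltransferase, was not detected, at 113 against 359 to 2197.

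The enzymes Pygb (glycogen phosphorylase, brain form), Cds1 (CDP-diacylglycerol synthase), Dhdh (dihydrodiol dehydrogenase), B3galnt1 (globoside synthase) and Pigz (a mannosyltransferase of GPI anchors) were also not detected in alveolar macrophages, with values of 111 to 147. Their lowest other values were 308, 337, 263, 225 and 242 in that order. BMDM were lower in Pigz than the tissues (log2 difference -2.41, SE 0.25; limma, adjusted p = 0.00029). Between intestine and adipose tissue, B3galnt1 was lower in the intestine (log2 difference -1.20, SE 0.17; limma, adjusted p = 0.00182). All 14 genes of the group differed among the 6 other groups, as did 77.1% of all transcripts. In BMDM 7 were lower (30.2% of all transcripts) and 0 higher (23.4%), with a median log2 difference of -0.58. The lowest mean was peritoneal for 7 of the 14, as for 13.2% of genes detected on all 9 arrays. The 7 lower in BMDM were Apoe, Abcc3, Prxl2b, Pigz, B3galnt1, Zdhhc14 and Dhdh.

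The third group, of 6 genes, serves immune recognition. Fcna, ficolin A, is a soluble lectin that binds microbial sugars and starts the lectin pathway of complement. Against 96.9 (not detected) on the alveolar array, Fcna read 20440 and 17546 in the peritoneum, 30218 in Kupffer cells, 31199 in the spleen, 268 and 261 in the intestine, 28540 and 25809 in adipose tissue and 258 in BMDM. Fcna was thus bright in the peritoneum, liver, spleen and adipose tissue and low in the intestine and BMDM, where it was detected at 258 to 268. It met the rule with a ratio of 2.66 against BMDM, while the median of the 9 other arrays was 20440. Fcna was lower in the intestine than in adipose tissue (log2 difference -7.19, SE 0.16; limma, adjusted p = 1.58e-06). Fcna was lower in BMDM than in the mean of the 5 tissues (log2 difference -5.78, SE 0.17; limma, adjusted p = 5.82e-06).

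Ly86, which pairs with the Toll-like receptor relative CD180 on the cell surface, was detected in alveolar macrophages. The value of Ly86 was 474 on the alveolar array, 2309 and 3538 on the peritoneal arrays, 3740 in Kupffer cells, 3253 in the spleen, 6982 and 6707 in the intestine, 4000 and 4534 in adipose tissue and 1410 in BMDM. The intestine was the highest and BMDM the lowest of the other groups. Against the 5 tissues, BMDM had lower Ly86 (log2 difference -1.52, SE 0.24; limma, adjusted p = 0.00174). Blnk, an adaptor that links Syk family kinases to downstream signalling, was not detected in alveolar macrophages. Blnk measured 141 (not detected) in alveolar macrophages against 676 and 426 in the peritoneum, 441 in Kupffer cells, 2311 in the spleen, 1604 and 1559 in the intestine, 3361 and 3159 in adipose tissue and 2703 in BMDM. Blnk was high in adipose tissue, BMDM and the spleen and low in the peritoneum and Kupffer cells. BMDM were higher in Blnk than the tissues (log2 difference 1.21, SE 0.28; limma, adjusted p = 0.00921). Intestinal macrophages had lower Blnk than adipose macrophages (log2 difference -1.06, SE 0.26; limma, adjusted p = 0.0205).

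Cmtm7, a MARVEL-domain membrane protein, was the most even gene outside the lung. The alveolar array read 539 for Cmtm7, the peritoneal arrays 1723 and 2167, the Kupffer array 1736, the splenic array 1913, the intestinal arrays 1853 and 1950, the adipose arrays 2055 and 2262 and the BMDM array 1686. The 9 other arrays lay within a 1.34-fold range, and the alveolar array was 3.13 times below the lowest of them. Ninj1, an adhesion protein that also ruptures the membrane of dying cells, was not detected in alveolar macrophages. For Ninj1 the values were 109 (not detected) in alveolar macrophages, 898 and 1150 in peritoneal ones, 661 in Kupffer cells, 327 in the spleen, 248 and 284 in the intestine, 1553 and 1651 in adipose tissue and 595 in BMDM. Its intestinal values were next lowest and its adipose values the highest. Between intestine and adipose tissue, Ninj1 was lower in the intestine (log2 difference -3.10, SE 0.20; limma, adjusted p = 3.63e-05). Il10rb, the shared receptor chain of the interleukin-10 family, was at 236 against 507 to 993, and limma's F test over the 6 groups did not pass (adjusted p = 0.0609).

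The fourth group, of 11 genes, belongs to signalling and regulation, and all 11 differed among the 6 other groups, as did 77.1% of all transcripts. Prkcb, the beta form of protein kinase C, had the third highest ratio. Against 176 on the alveolar array, Prkcb read 2163 and 1730 in the peritoneum, 3458 in Kupffer cells, 3764 in the spleen, 3032 and 2762 in the intestine, 1803 and 1873 in adipose tissue and 1927 in BMDM. The alveolar value was barely detected, with a detection p of 0.00686, and the others lay within a 2.18-fold range. On the background-corrected scale the mean of the other 6 groups was 30.4-fold above it. Spred1, an inhibitor of Ras-ERK signalling, was low by a ratio of 4.56. The value of Spred1 was 276 on the alveolar array, 1260 and 1348 on the peritoneal arrays, 1626 in Kupffer cells, 1336 in the spleen, 2337 and 2447 in the intestine, 3077 and 2983 in adipose tissue and 1739 in BMDM. The adipose values were the highest and the peritoneal ones among the lowest.

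Pdgfa, a ligand of the PDGF receptors, was not detected in alveolar macrophages. Pdgfa measured 121 (not detected) in alveolar macrophages against 518 and 480 in the peritoneum, 616 in Kupffer cells, 673 in the spleen, 729 and 811 in the intestine, 530 and 497 in adipose tissue and 1120 in BMDM. BMDM were above all other arrays, and the intestine was above adipose tissue. Pdgfa was higher in BMDM than in the mean of the 5 tissues (log2 difference 0.98, SE 0.17; limma, adjusted p = 0.00254). Pdgfa was higher in the intestine than in adipose tissue (log2 difference 0.68, SE 0.16; limma, adjusted p = 0.0154). Smad3, the transducer of TGF-beta signals, was barely detected. The alveolar array read 165 for Smad3, the peritoneal arrays 4868 and 3361, the Kupffer array 572, the splenic array 903, the intestinal arrays 1149 and 1157, the adipose arrays 1027 and 1075 and the BMDM array 388. Peritoneal values of Smad3 were several times those of any other group. Against the 5 tissues, BMDM had lower Smad3 (log2 difference -1.86, SE 0.22; limma, adjusted p = 0.000486). Etv5, an ETS family transcription factor, was not detected, at 116 against 286 to 632. BMDM were higher in Etv5 than the tissues (log2 difference 0.85, SE 0.16; limma, adjusted p = 0.00437).

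Limk1, the kinase of the actin-severing protein cofilin, was at 273 against 616 to 1510. Rasa3, a GTPase-activating protein for Ras and Rap, was at 540 against 1091 to 2411, and Arrb2, beta-arrestin 2, which ends G-protein signalling, at 1069 against 2141 to 3879. Intestinal macrophages had higher Arrb2 than adipose macrophages (log2 difference 0.72, SE 0.16; limma, adjusted p = 0.0121). Gng12, a G-protein gamma subunit, was at 282 against 633 to 1842. Eif4e3, of the cap-binding translation factor family, was at 278 against 746 to 1357, and Cdk20, a cyclin-dependent kinase family member, at 403 against 855 to 1673. BMDM were higher than the tissues for Pdgfa, Etv5 and Cdk20, and lower for Smad3, Limk1 and Rasa3.

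The last group holds 9 genes of channels, membrane traffic and structure. Pdlim4, a PDZ-LIM protein of the actin cytoskeleton, was not detected in alveolar macrophages. For Pdlim4 the values were 107 (not detected) in alveolar macrophages, 1932 and 1328 in peritoneal ones, 2964 in Kupffer cells, 1541 in the spleen, 965 and 993 in the intestine, 1117 and 1080 in adipose tissue and 1762 in BMDM. Every other array was at least 965, with Kupffer cells the highest. Kcnk13, a potassium leak channel, missed the detection threshold on the alveolar array with a detection p of 0.0106. Against 159 (not detected) on the alveolar array, Kcnk13 read 1905 and 1659 in the peritoneum, 1834 in Kupffer cells, 2961 in the spleen, 913 and 940 in the intestine, 1373 and 1682 in adipose tissue and 2108 in BMDM. The spleen was the highest and the intestine the lowest of the others. Between intestine and adipose tissue, Kcnk13 was lower in the intestine (log2 difference -0.74, SE 0.17; limma, adjusted p = 0.0167).

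Timp2, an inhibitor of matrix metalloproteinases, was detected in alveolar macrophages. The value of Timp2 was 607 on the alveolar array, 6584 and 8741 on the peritoneal arrays, 1601 in Kupffer cells, 4254 in the spleen, 1590 and 1678 in the intestine, 10149 and 10296 in adipose tissue and 2468 in BMDM. The adipose and peritoneal values were the highest, and the intestinal and Kupffer values were the next lowest after the alveolar one. Timp2 was lower in the intestine than in adipose tissue (log2 difference -2.68, SE 0.18; limma, adjusted p = 5.15e-05). Rcsd1, which binds the actin-capping protein CapZ, was even across the tissues and lower in BMDM. Rcsd1 measured 252 in alveolar macrophages against 3673 and 3299 in the peritoneum, 3639 in Kupffer cells, 4507 in the spleen, 2677 and 2683 in the intestine, 3057 and 2961 in adipose tissue and 695 in BMDM. Rcsd1 was lower in BMDM than in the mean of the 5 tissues (log2 difference -2.38, SE 0.16; limma, adjusted p = 4.85e-05). Calhm2, of the calcium homeostasis modulator family, followed the same order, at 120 (not detected) on the alveolar array, 335 in BMDM and 1061 to 1974 in the tissues. Against the 5 tissues, BMDM had lower Calhm2 (log2 difference -2.42, SE 0.19; limma, adjusted p = 8.51e-05).

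Scamp5, a secretory carrier membrane protein, was at 179 against 574 to 3146. Snx8, a sorting nexin, was at 1067 against 3036 to 7142. Intestinal macrophages had lower Snx8 than adipose macrophages (log2 difference -1.18, SE 0.16; limma, adjusted p = 0.00154). Lbr, the lamin B receptor of the inner nuclear membrane, was at 714 against 1461 to 4689. Lrmp, a membrane protein of the endoplasmic reticulum, was at 578 against 1652 to 2724, and its F test among the other groups gave an adjusted p of 0.0654. Of these 9 genes, 6 were lower in BMDM (30.2% of all transcripts) and 1, Snx8, was higher (23.4%), and Snx8 kept its call in 7 of 14 alternative fits.

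A second measurement of the same RNA came from other probes of these genes. All 54 chosen probes were the brightest of their gene. Of the 54 genes, 27 had 41 other probes, and 17 of those probes, for 14 genes, were detected on all 9 arrays other than alveolar. The remaining probes, not detected on all 9, had ratios from 0.865 (Oas1g) to 1.24 (Scamp5) and give no usable second measurement. Ifitm1, Ifi27l2a and Kcnk13 had only such other probes. The alveolar array was the lowest of the 10 for 16 of the 17, the exception being a Gng12 probe with a ratio of 0.904. Among all probes with 1 symbol detected on all 9 arrays, it was the lowest for 13.3%, and 1.08% met the ratio of 2. The genes were chosen for a low value on this same alveolar array, so the counts describe the probes and carry no test. The lowest other value was at least 2 times the alveolar one for 6 probes of 5 genes: Prkcb at 4.08 and 2.55, Cmtm7 at 2.99, Ifitm2 at 2.70, Acer3 at 2.31 and Oas1g at 2.26. These 6 are themselves among the 69 probes that met the ratio. A further Oas1g probe missed it at 1.86, as did Eif4e3 (1.93), Il10rb (1.65), Pdgfa (1.56), Pml (1.53), Cdk20 (1.52), Parp14 (1.21) and a second Gng12 probe (1.14). The other probes of Lacc1 and Pdlim4 gave ratios of 1.28 and 1.20, on values of 170 and 144 on the alveolar array. The median ratio of the 17 probes was 1.65.

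**Figure D4:**
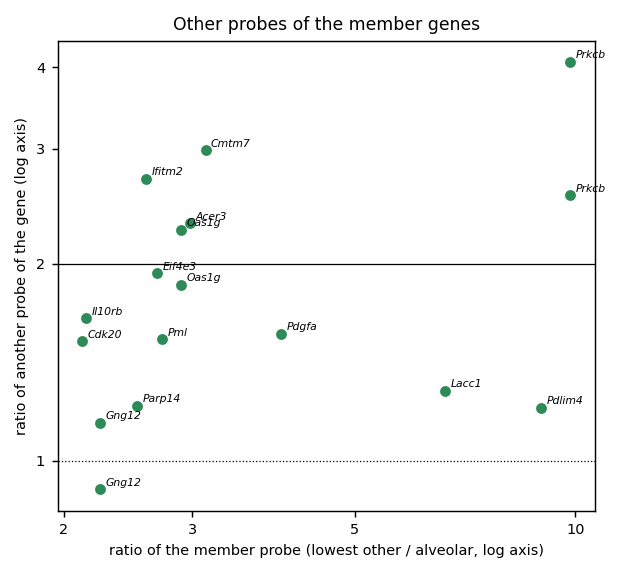
Ratio of the lowest other array to the alveolar array (log axes) for each of the 17 other probes detected on all 9 arrays, against the same ratio of the gene's own brightest probe. The solid line marks a ratio of 2 and the dotted line equal values, and 16 of the 17 points lie above the dotted line.

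Genes of related functions were then described in the same contrast of alveolar macrophages against the mean of the other 6 groups, whether or not they met the rule. Across all transcripts 20% were lower and 16.3% higher in alveolar macrophages (limma, adjusted p under 0.05), with a median log2 difference of -0.07. All 54 genes were lower, which the rule fixed. The interferon response list had 30 tested genes, 8 of them chosen by the rule. Of the 22 others, 20 were lower and 0 higher, with a median of -1.25 when levels that were not detected stood at the array's detection floor. Of the 20, 8 were detected in alveolar macrophages and 12 were not. At the floor 5 of these 12 (Isg20, Mx1, Oas3, Oasl2 and Zbp1) were not 2-fold lower. Of these, Mx1 (log2 difference 0.004) and Zbp1 (-0.07) showed almost no difference at the floor. Undetected levels of the other groups stood at their floors too, so this is no measure of equal levels. Without the floor the differences were -1.12 and -0.83. A gene was tested if any array detected it, so one not detected in alveolar macrophages entered only through groups where it is higher, and the counts of these lists are descriptions. Lower here means below the mean of the other 6 groups, not below each of them. The lowest other group mean was under the alveolar level for Ddx58 (log2 6.18 against 7.06), Oas3 (4.63 against 4.86) and Isg20 (5.56 against 5.62). For Ifit2 (5.33), Ifit3 (5.25) and Oasl1 (5.08) it was under the alveolar detection floor of 6.33. Rsad2, an antiviral enzyme, was at least 18.6-fold lower in alveolar macrophages, where it was not detected, than in the mean of the other groups. Irf7, the interferon regulatory factor that amplifies the response, was at least 8.35-fold lower and Ifit2 at least 6.40-fold lower, and both were not detected there. The GTPases Irgm1 and Igtp and the membrane tether Bst2 were detected and were 4.06-fold, 3.70-fold and 3.54-fold lower. Xaf1 (log2 difference -0.59, adjusted p = 0.0542) and Ifi35 (-0.12, adjusted p = 0.667) did not pass.

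In the core tissue macrophage list the rule had chosen Apoe and Lgmn. Of the 22 others tested, 13 were lower and 4 higher, with a median of -0.67 at the floor. Cd163 and Tmem119, counted as lower but not detected in alveolar macrophages, were not 2-fold lower at the floor. The lower ones include Stab1, a scavenger receptor, at least 21.6-fold lower, Cx3cr1, the fractalkine receptor, at least 7.31-fold lower, and Fcgr1, the high-affinity IgG receptor, 4.60-fold lower. Cebpb, Tgfbr1, Mrc1 and P2ry6 were higher, by 1.26, 0.91, 0.78 and 0.59 on the log2 scale. The Toll-like receptor list was mixed, and without Ly86, which the rule chose, 8 of 20 were lower and 7 higher. The lower ones include Cd180, the partner of Ly86, (2.73-fold) and the TLR4 co-receptor Ly96 (3.54-fold), while Tlr2 was higher by 2.45 and Tlr4 by 0.72 on the log2 scale.

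The apoptotic cell uptake list had 10 of 22 lower and 5 higher, with Gas6, a bridging ligand, at least 10.6-fold lower and its receptor Axl higher by 1.57. The Fc receptor and ITAM signalling list, without Blnk, which the rule chose, had 8 of 22 lower and 5 higher. In the actin cytoskeleton list 12 of 28 genes were higher and 3 lower, with a median of 0.37. The lysosome list without Lgmn had 7 of 23 lower and 5 higher, the MHC class I presentation list 5 of 15 lower and 1 higher, and the chemokine receptor list 3 of 11 in each direction. With genes chosen by the rule counted, leaving out each replicate gave 26 to 29 lower genes in the interferon list and 13 to 16 in the core list, but 3 to 11 in the lysosome list and 1 to 5 in the actin list. Without either intestinal or either adipose array the lysosome list had 3 lower genes and the actin list 1. The higher genes numbered 2 to 7 in the lysosome list, 2 to 5 in the core list, 3 to 6 in the uptake list, 3 to 7 in the Fc receptor list and 12 to 14 in the actin list when each replicate was left out. With arrays scaled to a common median, the counts of higher genes fell to 7 in the actin list, 2 each in the Toll-like receptor and uptake lists, 1 each in the core and Fc receptor lists and 0 in the lysosome and MHC lists. All lists were chosen with earlier results of these data known and are described by their counts.

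**Figure D5:**
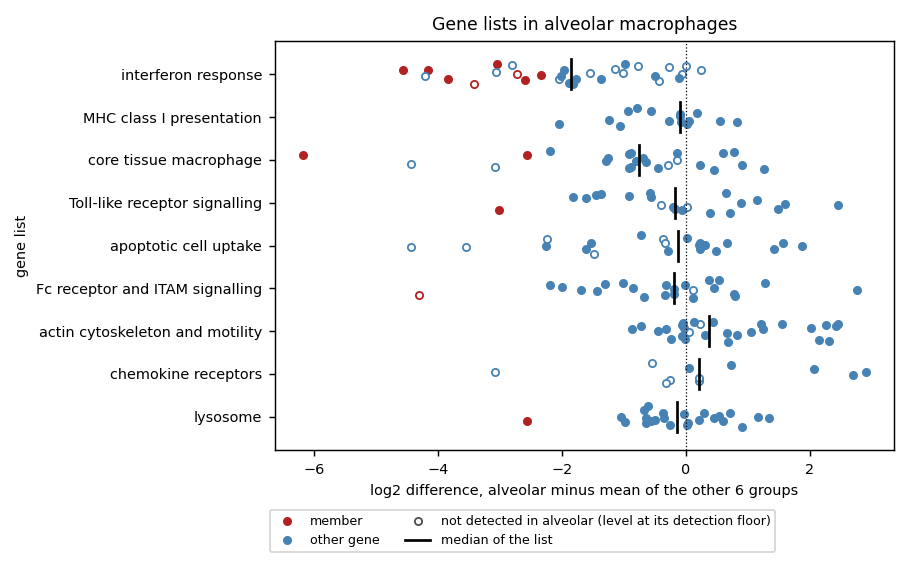
Log2 difference of alveolar macrophages against the mean of the other 6 groups for each tested gene of 9 lists, with genes not detected on an array placed at its detection floor (open circles where this was the alveolar array) and a bar at the median. Red points were chosen by the rule. The median of the interferon response list, its genes chosen by the rule included, is at -1.86.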

How the data were processed

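Per the file headers, the deposited table gives for 46632 probes on 10 arrays the linear intensity with its detection p-value. The median intensity ranged from 89.83 on the alveolar array to 166.5 on adipose replicate 1, so the arrays are not normalized to each other. The authors' series values are linear intensity with the same distribution on all arrays, as quantile normalization leaves them, although no method is given in the sources used here. Per the labels' protocols, DNase-treated RNA was amplified to biotinylated cRNA. The number of per-sample columns left out was 0.

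Of the probes, 29976 carried 1 gene symbol in the platform annotation, 10 several and 16646 none. Membership used the authors' series values and the deposited detection p-values. For tests, neqc of limma 3.58.1 (R 4.3.3, offset 16) took the deposited signals, corrected their background by way of the detection p-values, normalized quantiles and gave log2 values. Testing covered the 12838 transcripts that any array detected at p under 0.01 (9164 named genes by their brightest probe). A single limma model held 1 mean per group, with 3 residual and 4.02 prior degrees of freedom, and p-values were adjusted over all transcripts (Benjamini-Hochberg, threshold 0.05). Folds for a gene not detected on the alveolar array used that array's lowest detected level (6.33 on the log2 scale) and are lower bounds. Per array, 22.6% to 26.39% of probes were detected, which stands in for depth.

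The 54 genes, the gene lists, the role groups and the naming rule were chosen with earlier results of these data known. Genes were named for the ratio rank, the threshold, the range, the extremes of both tested contrasts, list membership or a known role. RefSeq promoters (GRCm38.p6) were matched by gene identifier for 41 of the 54. Alternatives changed the background correction, normalization, offset, filter, array set or replicate block, and left out each replicate.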

Additional observations from a re-analysis of the deposited data

How the results depend on the processing

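Same-numbered arrays showed no clear shared shift. Their deviations from their group means correlated at 0.05, -0.14 and -0.09 between the pairs of replicated groups. With 2 arrays per group this cannot tell whether same-numbered arrays were prepared together. With the replicate block, 45 genes differed among the 6 groups, 8 were higher and 22 lower in BMDM, and 7 were higher and 14 lower in the intestine than in adipose tissue. Over all transcripts the block gave 1860 higher and 2221 lower in alveolar macrophages. With arrays scaled to a common median, the genes higher in BMDM went from 9 to 2, those higher in the intestine from 7 to 2 and those lower there from 15 to 9, and 638 transcripts in place of 2094 were higher in alveolar macrophages. That scaling moved the median of all transcripts to -0.34 in BMDM and -0.54 in alveolar macrophages (log2). With the array set as a block, which rests on the peritoneal pair, 12 genes were higher in the intestine. Leaving out each replicate gave 40 to 53 genes for the F test, 6 to 10 higher and 18 to 29 lower in BMDM, 2 to 12 higher and 7 to 21 lower in the intestine, and 1632 to 3202 higher and 1884 to 3970 lower transcripts in alveolar macrophages. Leaving out an intestinal or adipose array took away 11 to 13 of the 22 calls between those groups, while leaving out either peritoneal array gave the highest counts for these groups, and no call of either contrast reversed. A ratio of 3 in the rule kept 17 genes. Without normalization or background correction, 53 of the 54 met the ratio of 2, and with neqc or median scaling all 54 did. Without the peritoneal arrays 102 genes passed the rule and without the BMDM array 91 did. Against the 5 brighter arrays alone 193 genes passed and against the other 4 dimmer arrays 81 (fewer reference arrays can only add genes). These settings of the reference arrays were chosen after seeing the data. The cause of these changes was not tested. With 1 alveolar array, the low alveolar values have no replicate check.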
